A study of Mus musculus with 110 samples.

Results

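VH and D joining that remained in cells depleted of cohesin was compared between a pro-B line lacking the regulatory element IGCR1 and its undeleted counterpart. The members were the libraries titled as Rad21degron with IAA and a JH4 bait, from which 10 of the 110 libraries of the series were taken. Of these, 4 came from the IGCR1-deleted line (all b libraries) and 6 from the undeleted line (3 replicates, each present as an a and a b library). The 4 and 3 b libraries were the primary comparison, and the 3 a libraries served as a check.

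All cells were a v-Abl transformed mouse pro-B cell line that was RAG2 deficient and carried Emu-Bcl2 and Rad21degron, and only the IGCR1deleted genotype differed between the lines. Cells were nucleofected with RAG2, given 500 uM IAA for 6 h, and then held in 3 uM STI-571 with 500 uM IAA for 4 days. Untreated (NT) cells of both lines received RAG2 and STI-571 without IAA and are cited here as context. The treatment label of deleted replicate 4 does not mention IAA, and its title, which does, was followed. RAG2 was supplied by nucleofection, so joining took place within the cells that received it, and a smaller joining fraction cannot be told apart from less joining per cell in these bulk libraries. The labels do not say whether replicates were separate cultures, so p-values measure only the spread between these samples, which may be technical.

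The heavy chain locus is assembled in steps, with a D segment joined to a JH segment before a VH segment is joined to the DJH product. RAG bound at the JH cluster is thought to meet distant segments as cohesin extrudes chromatin past it. IGCR1, a pair of CTCF-bound elements between the D array and the VH region, normally impedes that passage and keeps the VH segments out of reach before DJH joining. Rad21 is a core cohesin subunit, the degron tag lets IAA (an auxin) trigger its destruction, and STI-571 (imatinib) arrests v-Abl cells in G1, where RAG cuts.

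Each deposited line is a junction read between the JH4 bait and a partner (prey) sequence, and shares below are percentages of all junctions in a library. The deleted IAA libraries held 2668, 2244, 1608 and 1914 junctions and the undeleted b libraries 972, 654 and 1127. Untreated libraries were deeper, with 5329 to 15327 junctions in the deleted line and 12679 to 22819 in the undeleted b libraries. With 3 junctions taken as the limit that a count of 0 allows, that limit was 0.112% to 0.187% in the deleted and 0.266% to 0.459% in the undeleted b libraries. Reads are not unique molecules, so limits and intervals cover counting error only. The undeleted replicates came from sequencing runs that held no deleted library, so line and run cannot be told apart. The a and b libraries of a replicate shared run and index, so the a libraries are not an independent repeat. Their junction positions were shifted, with the Ighd4-1 peak at 114673086 in a and 114673092 in b libraries. Junctions alone gave no clear test of the deletion itself. In untreated cells the stretches ending 2500 and 3000 bases beyond Ighd1-1 held 15 and 6 junctions in the undeleted line and 1 and 0 in the deleted line.

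Some joins occurred in both treatments of 1 replicate number. Among distinct joins with at least 8 inserted bases, 48 of 487 in the deleted IAA libraries had the same position, bait end and inserted letters as a join in the same-numbered untreated library. Between other-numbered libraries there were 0 to 2 such joins per pair. These joins included 31 of 269 distinct VH joins, with 41, 18, 2 and 24 VH reads in replicates 1 to 4. The undeleted libraries shared 3 of 86, none of them VH. No read name was shared, and the origin of these joins was not tested, so the VH share is given with and without them. The shared count is a minimum, since a join must be read in both libraries to be seen. In untreated replicate 1 of the deleted line, 7159 VH reads held 6409 distinct joins.

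The segments that the results turn on are printed first, since RAG recognises their recombination signals. Sequences are from the minus strand of mm9 chromosome 12, written from VH towards JH, and capitals mark the 7-base and 9-base elements of the signals. Each D segment has signals with 12-base spacers on both sides. Ighd4-1 (chr12:114668711-114668777) lies next to the JH cluster. Ighd2-3 (chr12:114713583-114713655) and Ighd1-1 (chr12:114720353-114720431) lie towards the VH end of the array. Ighd3-1 (chr12:114763496-114763568) lies beyond Ighd1-1.
Ighd4-1: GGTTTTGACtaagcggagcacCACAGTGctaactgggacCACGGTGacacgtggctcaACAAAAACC
Ighd2-3: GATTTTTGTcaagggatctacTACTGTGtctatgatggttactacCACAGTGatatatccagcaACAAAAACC
Ighd1-1: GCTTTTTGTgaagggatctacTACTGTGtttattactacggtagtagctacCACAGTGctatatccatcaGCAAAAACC
Ighd3-1: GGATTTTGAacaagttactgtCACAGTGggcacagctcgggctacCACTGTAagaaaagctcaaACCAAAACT

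The 5 VH segments nearest the D array follow, each with its last 12 bases, its signal with a 23-base spacer, and the bases beyond. The last run of capitals, in all but the first segment, marks ACCAGCAGGGGGC, the longest run of letters beyond the signal that at least 4 of the 5 share, which holds part of the CTCF consensus. They are the segment at position 114830805 of the authors' hybrid coordinates (mm9 chr12:114811058-114811149), which has no symbol here, Ighv5-2 (chr12:114816635-114816726), Ighv2-2 (chr12:114826398-114826489), Ighv5-4 (chr12:114835577-114835668) and Ighv2-3 (chr12:114849315-114849406).
VH at 114830805: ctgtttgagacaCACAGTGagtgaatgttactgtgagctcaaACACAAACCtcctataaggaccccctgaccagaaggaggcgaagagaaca
Ighv5-2: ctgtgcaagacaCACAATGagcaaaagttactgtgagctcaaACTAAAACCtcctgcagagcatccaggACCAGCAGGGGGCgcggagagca
Ighv2-2: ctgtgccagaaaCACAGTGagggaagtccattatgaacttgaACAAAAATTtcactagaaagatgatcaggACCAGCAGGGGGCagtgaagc
Ighv5-4: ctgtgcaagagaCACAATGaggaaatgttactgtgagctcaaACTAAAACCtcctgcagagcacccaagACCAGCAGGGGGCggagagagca
Ighv2-3: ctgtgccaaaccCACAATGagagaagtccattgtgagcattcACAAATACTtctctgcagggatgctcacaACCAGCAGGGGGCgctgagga
ACCAGCAGGGGGC was chosen from these segments, so its presence in 4 of them is no finding. Searched on both strands within 100 bases from the signal's start, it stood in 32 of the 132 VH segments with a recognisable 7-base element (24.2%), all on the printed strand. Some of these segments had the same best match in mm9, such as Ighv5-6 and the segment at 115081350 (both at 114863717). The same mm9 letters can thus be counted more than once, and 24.2% is not a share of separate sequences. A match is a description of the letters, not of CTCF binding.

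After IAA, VH joining remained at a reduced share in the IGCR1-deleted line and was nearly absent from the undeleted line. In untreated cells the mean VH share was 50.7% ± 2.33 (SD, n = 4) in the deleted line. It was 1.83% ± 0.0642 (SD, n = 3) in the undeleted line, so the lines also differed without IAA. VH junctions made up 5.73%, 5.93%, 7.21% and 5.69% of the deleted libraries (153, 133, 116 and 109 junctions). In the undeleted b libraries there was 1 VH junction in replicate 1 (0.103%) and none in replicates 2 and 3. The 2 groups did not overlap, and replicate 3 was the highest of the deleted libraries. The mean was 6.14% ± 0.721 (SD, n = 4) against 0.0343% ± 0.0594 (SD, n = 3), a difference of 6.11 percentage points. The two-sided exact permutation test over all 35 arrangements gave p = 0.0286, the smallest it can give, and 0.0786 after Benjamini-Hochberg adjustment over the 11 share comparisons, so it missed a threshold of 0.05. Summed, 511 of 8434 junctions stood against 1 of 2753, a ratio of 166.8 with an exact 95% counting interval of 29.8 to 6601. Without the long-insert joins also read in the untreated partner, the deleted mean was 5.32% ± 1.37 (SD, n = 4). Shared joins with shorter inserts, or not read in the untreated library, could not be removed.

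The single undeleted VH junction did not resemble a VH to DJH join. It lay at hybrid position 117485033 of chromosome 12, in minus orientation, at no VH segment, with 1 inserted base. The a libraries of the undeleted line held 4 VH junctions of 2813, all in replicate 3. Of these, 2 were at Ighv5-2, 1 at Ighv2-3 and 1 at no segment. VH joins at a segment were therefore found in the undeleted line at the level of single reads.

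**Figure D1:**
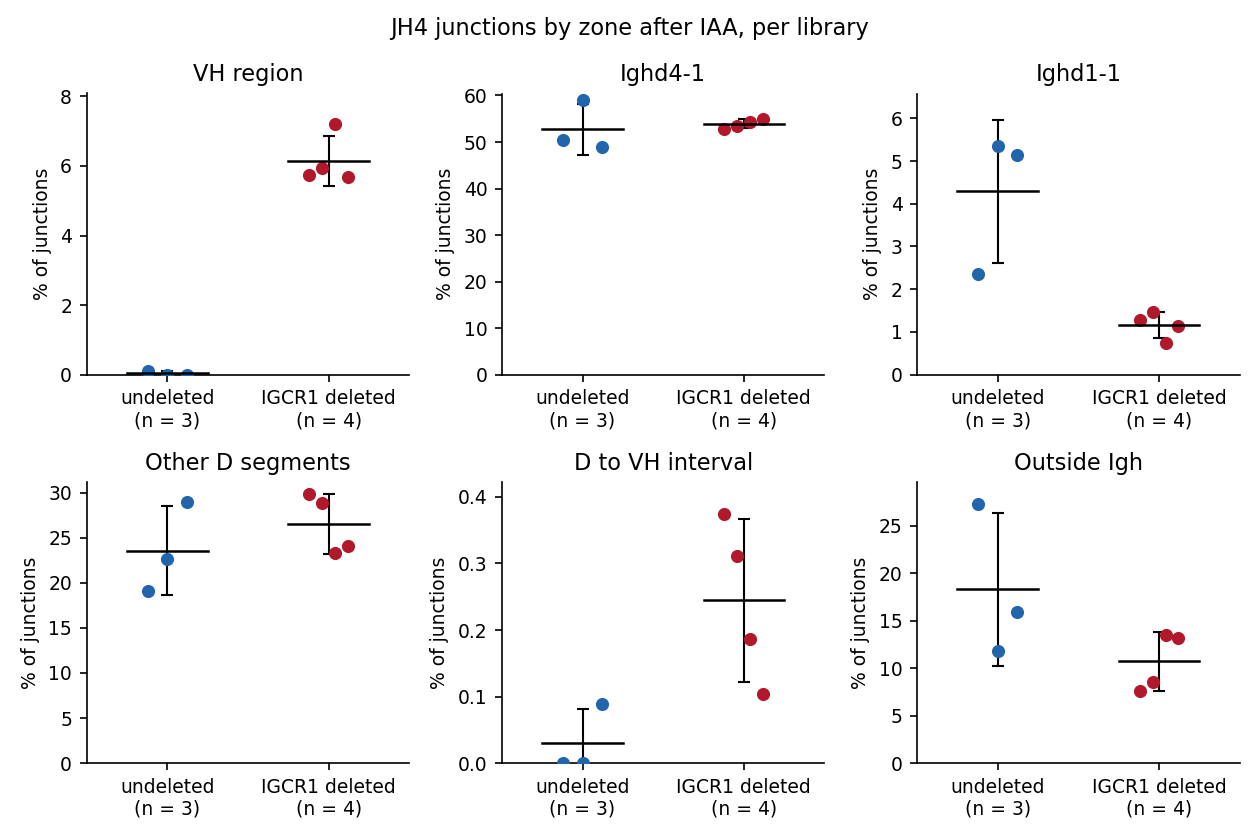
Share of junctions (%) in the VH region, at Ighd4-1, Ighd1-1 and other D segments, in the D to VH interval and outside Igh. Each point is 1 b library after IAA (undeleted n = 3, IGCR1-deleted n = 4). Long lines are means and bars are SD. VH junctions lie at 5.69% to 7.21% in the deleted line and at 0% to 0.103% in the undeleted line, Ighd1-1 is lower in the deleted line, and Ighd4-1 lies near 53.9% and 52.8%.

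The remaining VH joining was concentrated at the VH segments nearest the D array. Of the 511 VH junctions, 481 fell at the first 5 segments, 6 more lay in that stretch at no segment, and 503 lay at a segment in the orientation of deletional joining. Ighv5-2, 101.8 kb beyond Ighd1-1, took 124, 101, 82 and 72 junctions. This was 4.65%, 4.50%, 5.10% and 3.76% of the libraries, against 0% in all 3 undeleted b libraries. Over the floor of 3 junctions in the undeleted group's total of 2753 (0.109%), Ighv5-2 was 41.2-fold higher. The exact 95% lower limit of its ratio to the undeleted line was 33.4.

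Ighv2-2, the third VH segment, had 9, 18, 10 and 24 junctions in the deleted line and 0 in the undeleted line. It was 6.64-fold higher over the same floor, with an exact 95% lower limit of 5.24. The nearest VH segment, at 114830805, had 15, 8, 1 and 9 junctions against 0. It was 3.59-fold higher over the floor, with an exact 95% lower limit of 2.76. Its lowest deleted library (0.0622%) lay below that floor. Ighv5-4 and Ighv2-3 had 3 and 5 junctions in all, a depth at which no difference from the undeleted line could be seen. The order from Ighv5-2 down to Ighv5-4 is a description, and Ighv2-2 and the nearest segment overlapped in their library values. By family, 416 junctions were Ighv5, 72 were Ighv2, 14 Ighv1, 1 Ighv7 and 0 Ighv14.

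Ighv5-2 was also the leading VH segment in untreated cells of the deleted line. Ighv5-2 made up 81.0%, 75.9%, 70.7% and 66.1% of VH junctions after IAA. In untreated libraries of the line it made up 77.1%, 78.0%, 76.2% and 75.9%. The means were 73.4% ± 6.49 and 76.8% ± 0.962 (SD, n = 4 each), with an exact permutation p = 0.343 (0.539 adjusted). Without IAA replicate 1 the difference of -3.39 percentage points became -5.92 (exact permutation p = 0.0571), and without IAA replicate 4 it became -0.926. With joins of the same position, bait end and inserted letters counted once it was -2.48 (exact permutation p = 0.0571). Merging joins with different inserted letters as well turned it to +18.25 (exact permutation p = 0.0286). That count saturates with depth: in replicate 1 it took 7159 untreated VH reads to 988 and 153 IAA reads to 66. The reversal therefore cannot be told apart from the difference in library depth.

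**Figure D2:**
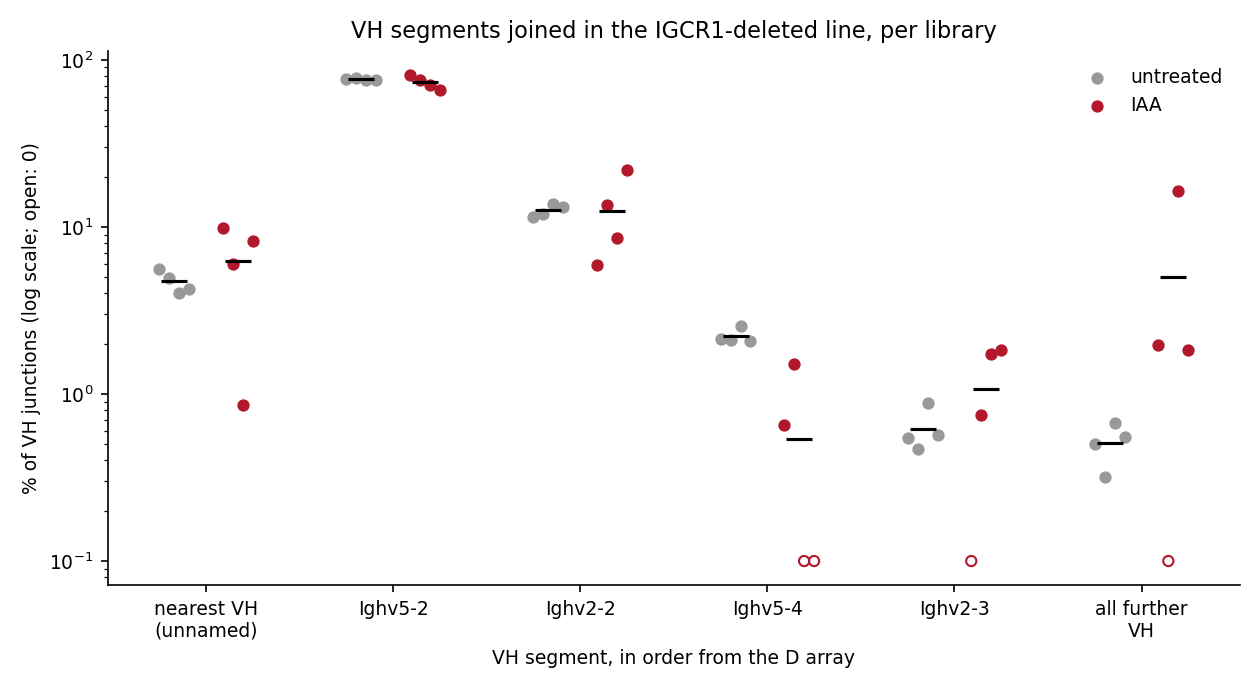
Share of VH junctions (%, log scale) at the first 5 VH segments and at all further VH segments in the IGCR1-deleted line, with 1 point per library, untreated (n = 4) and after IAA (n = 4); short lines are means and open points are 0. Ighv5-2 leads in every library, and the IAA library of replicate 3 stands apart at the further VH segments with 16.4%.

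VH joins beyond the first 5 segments were few and came mainly from 1 library. Replicate 3 held 19 such junctions in 5 distinct joins (16.4% of its VH junctions). The other libraries held 3, 0 and 2 (1.96%, 0% and 1.84%). The 5 joins were at Ighv2-9 (6 reads, 718.5 kb beyond Ighd1-1), Ighv1-9 (7 reads, 1477.5 kb), and the segments at 116416805 (3 reads), 116836528 (2 reads) and 116479623 (1 read). The most distal VH segment with a junction was Ighv1-63, 2389.5 kb beyond Ighd1-1, with 1 read in replicate 1. In untreated libraries of the line these further joins made up 0.317% to 0.666% of VH junctions. In replicate 3, 5 of 59 distinct VH joins (8.47%) were of this kind.

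Some reads of VH joins contained the whole VH to D to JH4 product, of which examples are printed on the coding strand. A D family could not be called in every VH join, and the printed examples all have a call. The VH end and JH4 are in lower case and the bases between them, which hold the D remnant, are in capitals. The first 3 end in Ighv5-2, with inserts matching the Ighd2, Ighd4 and Ighd1 families. The last 2 are distal joins of replicate 3.
Ighv5-2 with Ighd2-type insert: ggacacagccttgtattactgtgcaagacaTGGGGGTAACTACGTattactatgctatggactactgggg
Ighv5-2 with Ighd4-type insert: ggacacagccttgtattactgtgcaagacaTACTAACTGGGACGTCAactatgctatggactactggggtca
Ighv5-2 with Ighd1-type insert: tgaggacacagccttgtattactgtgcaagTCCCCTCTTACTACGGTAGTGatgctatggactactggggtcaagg
Ighv1-9: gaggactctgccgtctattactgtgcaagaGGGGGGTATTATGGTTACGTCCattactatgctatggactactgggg
VH at 116416805: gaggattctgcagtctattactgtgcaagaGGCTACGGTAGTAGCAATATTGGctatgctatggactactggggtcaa

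Ighd2 was the family found most often inside VH joins in both treatments. An insert was called by an exact match of at least 7 bases to 1 family's D core in distinct VH joins (94, 93, 57 and 74 in the IAA libraries). Ighd2 was found in 43.6%, 53.8%, 52.6% and 43.2% of them and Ighd4 in 20.2%, 16.1%, 17.5% and 9.46%. Ighd2 averaged 48.3% ± 5.66 after IAA and 42.7% ± 1.71 untreated (exact permutation p = 0.143). Ighd4 averaged 15.8% ± 4.58 and 11.4% ± 1.70 (exact permutation p = 0.143), and Ighd1 3.04% ± 3.16 and 4.84% ± 0.482 (exact permutation p = 0.314). No family was called in 32.8% and 38.6% of the joins on average. No difference passed after adjustment over the 4 comparisons, whose lowest adjusted value was 0.286. Ighd2 was higher after IAA in each of the 4 same-numbered pairs, which share a run (exact sign-flip p = 0.125, the lowest that 4 pairs allow).

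The match length was settled after 6, 7 and 8 bases had all been tried. At 6 bases the reversed insert matched Ighd2 in 27.2% of IAA joins, against 2.12% at 7 bases, and that background led to the choice. At 6 bases Ighd4 was higher after IAA, 22.2% ± 2.75 against 14.7% ± 1.87 (exact permutation p = 0.0286, unadjusted), and reversed inserts matched it in 0%. At 8 bases Ighd4 stood at 11.6% ± 2.94 against 7.87% ± 1.11 (exact permutation p = 0.0571). The Ighd4 call thus depended on the match length. The Ighd4-1 core has only 11 bases, so trimmed copies escape longer matches.

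D to JH4 joins in the same libraries had another family order. Ighd4, which is Ighd4-1 alone, gave 60.5%, 57.8%, 65.7% and 62.2% of distinct D to JH4 joins after IAA. The untreated mean was 24.7%. Ighd2 gave 33.7%, 35.1%, 27.5% and 31.8% after IAA and 48.9% on average untreated. Among joins of either family, Ighd4 thus averaged 65.8% of distinct D to JH4 joins after IAA, and 24.4% ± 5.67 (SD, n = 4) of distinct VH joins. The 2 values come from different calls, a position for D to JH4 joins and a sequence match for VH joins, so no test was made between them.

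**Figure D3:**
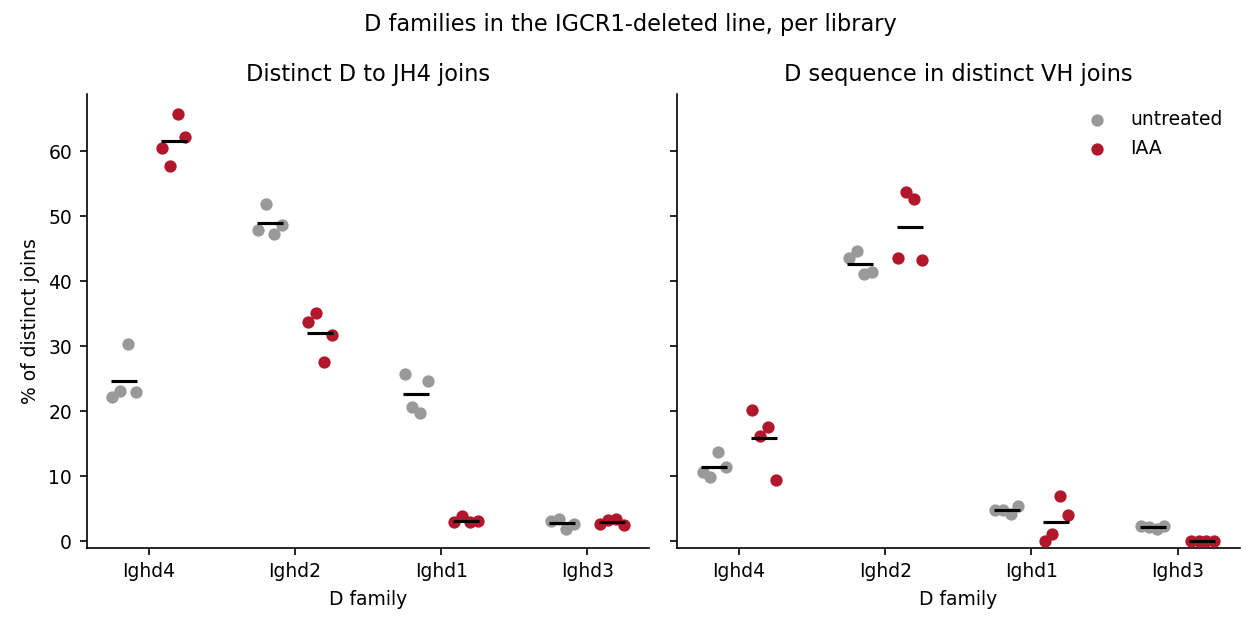
D family use (% of distinct joins) in the IGCR1-deleted line, untreated (n = 4) and after IAA (n = 4), with 1 point per library and short lines at the means; families were called by position in D to JH4 joins (left) and by a match of at least 7 bases in VH joins (right). After IAA Ighd4 averages 61.6% of D to JH4 joins and 15.8% of VH joins.

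Ighd4-1 was the main partner of JH4 in both lines after IAA. It made up 52.8%, 53.5%, 54.4% and 55.0% of the deleted libraries and 50.4%, 59.0% and 48.9% of the undeleted ones. The deleted values lay inside the undeleted range. The means were 53.9% ± 0.962 (SD, n = 4) and 52.8% ± 5.46 (SD, n = 3), with an exact permutation p = 0.743. Against the 3 a libraries, which ranged from 51.1% to 64.7%, the difference turned to -6.10 percentage points (exact permutation p = 0.257). As a share of Igh junctions alone it was -4.30 (exact permutation p = 0.314).

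Ighd1-1, the D segment used most in untreated cells of the undeleted line, was lower in the deleted line after IAA. It made up 1.27%, 1.47%, 0.746% and 1.15% of the deleted libraries (34, 33, 12 and 22 junctions). In the undeleted libraries it made up 2.37%, 5.35% and 5.15% (23, 35 and 58 junctions). The groups did not overlap, and undeleted replicate 1 lay nearest the deleted values. The means were 1.16% ± 0.306 (SD, n = 4) and 4.29% ± 1.67 (SD, n = 3), a difference of -3.13 percentage points (exact permutation p = 0.0286, 0.0786 adjusted). Per 100 Ighd4-1 junctions, Ighd1-1 stood at 2.16 ± 0.587 and 8.10 ± 3.04 (exact permutation p = 0.0286, 0.0786 adjusted). With joins of the same position, bait end and inserted letters counted once, the shares were 1.68%, 2.48%, 1.45% and 1.74% against 1.90%, 5.20% and 5.29%, which overlap (exact permutation p = 0.0571). In untreated cells the mean share of Ighd1-1 was also lower in the deleted line, 10.5% ± 2.44 (n = 4) against 45.8% ± 2.72 (n = 3).

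Across segments with a mean of at least 10 junctions per library, limma called 2 of 12 (16.7%) at an adjusted p under 0.05. Of these, 1 was higher in the deleted line (8.33%) and 1 was lower (8.33%), and the groups did not overlap for the same count of 2 of 12 (16.7%). The higher one was Ighv5-2 (log2 change 6.34, SE 0.30, limma adjusted p = 1.55e-07). It passed the filter only through the deleted group, so it had to differ, and its fitted change depends on the pseudocount of 0.5. The lower one was Ighd1-1 (log2 change -1.70, SE 0.41, limma adjusted p = 0.0164). Without deleted replicate 4 limma called 1 segment and the adjusted p of Ighd1-1 was 0.0750. Without undeleted replicate 3 limma called 5, of which 4 were higher, among them the D segments at 114690286 (limma adjusted p = 0.0365) and 114687612 (limma adjusted p = 0.0237).

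The other D segments held 26.5% ± 3.31 (n = 4) of junctions in the deleted line and 23.6% ± 4.96 (n = 3) in the undeleted line (exact permutation p = 0.429). The difference of 2.95 percentage points was 0.738 without undeleted replicate 1, 1.85 without deleted replicate 1 and 5.63 without undeleted replicate 3. The D segment at 114690286, of the Ighd2 family and 17.2 kb from Ighd4-1, was the next most used. It made up 10.6%, 10.7%, 5.47% and 7.52% of the deleted libraries and 2.57%, 5.35% and 8.16% of the undeleted ones. The ranges overlapped (log2 change 0.88, limma adjusted p = 0.282). With the a libraries in place of b, limma gave a log2 change of 0.80 (adjusted p = 0.0328). Ighd2-3, the neighbour of Ighd1-1, stood at 4.24% ± 0.670 (n = 4) and 4.25% ± 1.84 (n = 3). The D segments at 114714725, 114723458, 114710077 and 114700407 had log2 changes of 0.16 to 0.37, and those at 114695747 and 114705399 of -0.52 and -0.56. None of these passed the limma test, and the undeleted libraries spread widely: the segment at 114695747 made up 8.54%, 2.29% and 2.84% of them.

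Ighd3-1, which lies 111.0 kb from Ighd4-1 and beyond Ighd1-1, was seen only in reads of the deleted line after IAA. It had 7, 8, 22 and 1 junctions there and 0 in all undeleted a and b libraries. Over the floor of the b libraries (0.109%) it was 4.14-fold higher in reads, with an exact 95% lower limit of 3.20. The 38 reads formed only 13 distinct joins, so repeated reads weigh on this ratio. Replicate 4 (0.0523%) lay below that floor. Replicate 3 was the highest, and without it the ratio over the floor was 2.15-fold (16 of 6826 junctions). In untreated cells it made up 0.291% ± 0.0976 (n = 4) of junctions in the deleted line and 0.00422% ± 0.00397 (n = 3) in the undeleted line. Its mean count was below 10, so it did not enter the limma test.

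**Figure D4:**
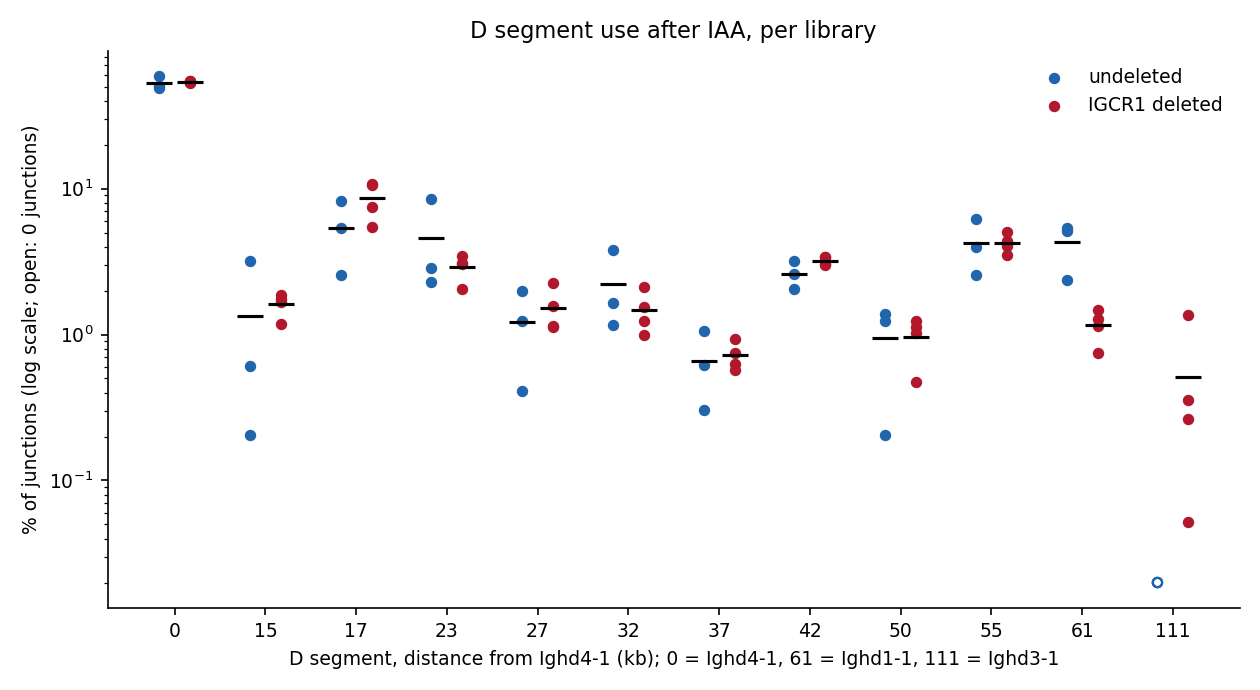
Share of junctions (%, log scale) at the D segments tested and at Ighd3-1 after IAA, ordered by distance from Ighd4-1 in kb, with 1 point per b library (undeleted n = 3, IGCR1-deleted n = 4), short lines at the means and open points at 0 junctions. Ighd4-1 at 0 kb lies near 53.9% and 52.8% in the 2 lines, Ighd1-1 at 61 kb is lower in the deleted line, and Ighd3-1 at 111 kb has junctions in the deleted line only.

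Joins between the D array and the first VH segment, outside any segment, were rare. The deleted libraries held 10, 7, 3 and 2 (0.375%, 0.312%, 0.187% and 0.104%) and the undeleted ones 0, 0 and 1. The groups did not overlap, and the difference of 0.215 percentage points missed the threshold (exact permutation p = 0.0571, 0.126 adjusted). Of the 22 deleted-line reads, 13 lay within 5 bases of a site 3018 bases beyond Ighd1-1, in 3 libraries, 9 in minus and 4 in plus orientation. Untreated libraries of the deleted line held 6 reads at this site, and the undeleted line held 0 in either treatment. For the whole interval the order was the other way in untreated cells. Means there were 0.351% ± 0.175 (n = 4) in the deleted and 0.738% ± 0.270 (n = 3) in the undeleted line.

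Joins within the JH cluster, before Ighd4-1, were a small share of both lines, with 0.872% ± 0.380 (n = 4) in the deleted and 0.870% ± 0.416 (n = 3) in the undeleted line (exact permutation p = 1.0). The minus orientation, which marks inversional joins, averaged 0.131% of junctions in the D array in both lines (exact permutation p = 1.0). The SD was 0.103 (n = 4) in the deleted and 0.144 (n = 3) in the undeleted line. With 4, 2, 3 and 0 such reads in the deleted and 2, 0 and 1 in the undeleted libraries, equality cannot be judged. Junctions outside Igh made up 7.61%, 8.56%, 13.5% and 13.2% of the deleted and 27.3%, 11.8% and 15.9% of the undeleted libraries. The difference of -7.59 percentage points did not pass (exact permutation p = 0.114), and it was -3.11 without undeleted replicate 1. These junctions were spread over 19 to 21 chromosomes, with a median overlap of 3 bases between bait and prey, and 65.4% to 86.0% of them had an overlap. In untreated libraries they were 0.337% to 1.93% of junctions, and 10.7% to 31.6% of them had an overlap. With Igh junctions alone as the denominator, the VH difference was 6.85 percentage points.

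Inserted bases at Ighd4-1 joins, a mark of end processing, were compared next. Bases were inserted in 69.3%, 67.4%, 71.7% and 71.0% of Ighd4-1 junctions in the deleted line and in 74.9%, 78.8% and 74.0% in the undeleted line. The groups did not overlap, with means of 69.9% ± 1.96 (n = 4) and 75.9% ± 2.51 (n = 3) (exact permutation p = 0.0286, 0.0786 adjusted). With joins of the same position, bait end and inserted letters counted once, the values were 83.5% to 88.4% and 87.3% to 89.8%, which overlap, and the difference was -2.05 percentage points (exact permutation p = 0.257). The most frequent Ighd4-1 join had the same sequence in both lines, with 372 reads in 4 deleted and 88 reads in 3 undeleted libraries. It is printed to show the 2 shared bases, in capitals, between the Ighd4-1 end and JH4.
Most frequent Ighd4-1 join: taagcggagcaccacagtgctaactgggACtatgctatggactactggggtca

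Mean shares were also set beside those of untreated cells, as a description with no test. The mean share of Ighv5-2 was 38.9% untreated and 4.50% after IAA, a ratio of 8.65. For Ighv2-2 the ratio was 8.42 and for the nearest VH segment 6.60. For Ighv5-4 it was 35.4 and for Ighv2-3 4.57, which rest on 3 and 5 reads after IAA. For Ighd1-1 it was 9.08 (10.5% against 1.16%) in the deleted and 10.7 in the undeleted line, and for Ighd2-3 it was 0.835 and 1.67. Ighd4-1 went the other way, with ratios of 0.261 in the deleted and 0.263 in the undeleted line. VH junctions per 100 Ighd1-1 junctions were 450.0, 403.0, 966.7 and 495.5 after IAA in the deleted line and 441.6, 533.0, 674.1 and 366.5 untreated. The 2 ranges overlapped, with means of 578.8 ± 261.3 and 503.8 ± 132.4 (n = 4 each). The part of cells that kept cohesin in these ratios was not tested.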

How the data were processed

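LAM-HTGTS V(D)J-Seq reads DNA from a JH4 bait into its join partner. The authors deposited junction lists with 1 line per junction read, used here as tallies of deposited lines, and, per the submitters' processing notes, Bowtie2 and mm9 were used. Per the labels, reads were aligned to an AJ851868/mm9 hybrid genome, whose positions differ from mm9 over part of the locus. The filters applied before deposit are not given in the sources used here. Junctions within 100 bp of 180 recombining segments (154 VH, 26 D), found as peaks, were assigned to them. Segments were named by blastn 2.17.0 against the segments annotated by GENCODE on mm9, at over 95% identity. A name also required either a VH offset from mm9 within 100 bases of that of Ighv5-2, or no near-equal copy. Ighv2-2 was named by its offset, at 96.99% identity, while the segment at 115073093 matched that annotation at 98.36%. Shares were compared by two-sided exact permutation tests (scipy 1.17.1, Python 3.11.15) and segment tallies by limma 3.58.1 in R 4.3.3 with voom weights, a pseudocount of 0.5 and a mean of at least 10 junctions. The segments named are the 12 tested, the VH segments nearest the D array and most distal with a junction, and VH segments with enough junctions; Ighd3-1, Ighv5-4, Ighv2-3 and the VH of deleted replicate 3 were added after their values were seen. The scripts were tested on simulated data. In 50 simulations of 12 segments, limma recovered 99.4% of log2 changes of size 2. Of its calls at an adjusted p under 0.05, 8.9% were false. The members and lists were chosen with earlier results of these data known. Alternatives covered library set, repeated reads, windows, denominator, scale, filter, pseudocount, replicates and block; 6 more were added after seeing the data. Segment peaks were found over 26 libraries, which were the Rad21 degron libraries and those of bone marrow pro-B cells. The bone marrow libraries set the reference position of the Ighd4-1 peak (114673089) and entered no comparison. Chromosome 12 positions beyond the bait were shifted in each library to that reference before segments were assigned. Other baits and the remaining libraries were not used here.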

Additional observations from a re-analysis of the deposited data

Results flagged for a closer look

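In the deleted line after IAA, the VH share of replicate 3 was 7.214%, apart from the other libraries at 5.695% to 5.927%. The gap to the nearest was 0.847 of the group's range, above Dixon's critical value at the 95% level. In the same library, 16.38% of VH junctions lay beyond the first 5 VH segments, against 0% to 1.961% in the others (0.880 of the range). The 19 reads behind that value form 5 distinct joins, so repeated reads weigh on it. Dixon's test was applied to 28 groups of 4, at a level where chance picks out about 5% of groups. Among the deleted IAA libraries, replicate 3 alone came from its sequencing run.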

How the results depend on the processing

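Leaving out a replicate raised the smallest attainable exact permutation p to 0.0667 or 0.1, so no share compared between the lines could pass. For Ighv5-2 of VH junctions (4 against 4) it stayed 0.0286, and the range was -5.923 to -0.9261. The ranges were 5.751 to 6.258 percentage points for VH, -4.089 to -2.596 for Ighd1-1, -7.641 to -4.725 for Ighd1-1 per 100 Ighd4-1, -6.976 to -4.622 for inserted bases, -0.7913 to 4.274 for Ighd4-1, -0.2280 to 0.1779 for the JH cluster and -0.06473 to 0.07772 for minus orientation, 0.7384 to 5.634 for other D segments, 0.1714 to 0.2615 for the interval and -10.85 to -3.109 outside Igh. The number of segments limma called ranged from 1 to 5.

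Replicate numbers were not treated as pairs between the lines. Same-numbered deviations correlated at 0.0329, 0.0636 and -0.361 over 12 segments. Other-numbered ones ran from -0.465 to 0.626, a spread too wide to decide on pairing. With the replicate block (exact sign-flip test, smallest p 0.25), differences were 6.258 for VH, -3.124 for Ighd1-1, -5.918 per 100 Ighd4-1 and -6.444 for inserted bases. The limma replicate block called 1 segment, with Ighd1-1 at adjusted p = 0.0603. Between same-numbered IAA and untreated libraries of the deleted line, at 7 bases Ighd2 in VH joins was higher after IAA in each of 4 pairs, and Ighd4 in 3. Flipping signs gave an exact p of 0.125, the lowest that 4 pairs allow, and 0.25.

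Counting once the junctions of the same position, orientation and bait end merges joins with different inserted letters, more so in deeper libraries such as the untreated ones. It gave -3.396 for Ighd1-1 (exact p = 0.0571), -11.69 per 100 Ighd4-1 (0.114), -5.925 for inserted bases (0.171) and 18.25 for Ighv5-2 of VH junctions (exact p = 0.0286). Counting once by inserted letters as well, added after seeing the data, gave -2.292 (0.0571), -4.196 (0.0571), -2.050 (0.257) and -2.475 (0.0571) for the same measures, -5.490 for Ighd4-1 and -0.02348 for minus orientation. The a libraries gave -5.967 for inserted bases (exact p = 0.0571). Ighd4-1 turned to -2.475 (mean of a and b), -6.100 (a), -4.012 (counted once), -4.297 (Igh share), -0.03101 and -0.7913 (without undeleted replicate 1 or 3) and -0.2787 (prey of at least 50 bases, added after seeing the data). The JH cluster turned to -0.07067 (Igh share) and minus orientation to -0.2469 (mean of a and b), -0.4943 (a) and -0.02957 (counted once). Over the alternatives the exact p ran from 0.0286 to 0.25 for VH and for Ighd1-1.

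Without a filter limma called 163 of 180 segments, 156 of them lower, since empty segments then differ by library total. With 4 groups in the fit it called 5. Single segments reversed in log2 change. Ighd4-1 turned to -0.033 (median of ratios), -0.058 (Igh scale), -0.018 (a and b summed), -0.053 (a) and -0.16 (counted once). Ighd2-3 turned to -0.19 (median of ratios) and -0.14 (Igh scale). With the a libraries the D segments at 114695747, 114700407 and 114705399 turned to 0.076, -0.0012 and 0.40, and counted once the first was 0.0027. Leaving out a replicate also turned the sign at 6 segments, with ranges of -0.40 to 0.41 for Ighd2-3, -0.14 to 1.99 at 114687612, -0.89 to 0.096 at 114695747, -0.17 to 0.83 at 114700407, -0.26 to 0.54 at 114710077 and -0.55 to 0.70 at 114723458. The cause was not tested.

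The undeleted libraries, with 654 to 1127 junctions, limit all comparisons of rare joins.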
